A study of Rattus norvegicus with 8 samples.

Results

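Leukocyte and myeloid marker genes were followed in the growth plate of the rat femur. The list held 43 genes that mark blood-derived cells, above all neutrophils, monocytes and macrophages. Its members were chosen by name, with earlier results of these data known, so the list as a whole was given no test. Of these, 37 had a probe set that maps to no other gene, and the one with the highest mean over all arrays stood for each gene. They were 37 of 14217 genes measured in this way. Mpo, Elane, Ctsg, Ngp and Ltf, all granule proteins, and Spi1, which encodes the transcription factor PU.1, had no probe set of their own and were not analysed here.

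The 8 Affymetrix arrays covered the perichondral, reserve, proliferative and hypertrophic zones (4 in all), with 1 array per zone from Rattus norvegicus aged 42 days and 1 from animals aged 46 days. RNA of 3 rats was pooled for each array, so no value belongs to 1 animal. The labels give no treatment, genotype, strain or sex, nor the way in which zones were isolated, nor whether different zones came from the same animals. The submitters count the ages as replicates, so a zone has n = 2 arrays, and a zone's SD holds differences between ages, between pools and between hybridisations.

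Growth plate cartilage is known as a tissue without blood vessels, bordered by bone and marrow that are rich in blood-forming cells. Neutrophils and monocytes of the marrow carry granule proteins and an oxidase that makes superoxide, and macrophages carry scavenger receptors, lysosomal proteins and complement C1q. Cells of the whole leukocyte lineage share surface proteins such as CD45, the product of Ptprc, and adaptor proteins that pass signals from receptors without kinase activity of their own. Osteoclasts, which resorb cartilage and bone, arise from the same myeloid lineage and share several of these genes.

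Most members had their highest level in the reserve zone, and none passed the test between zones. Levels are log2(intensity + 16) after quantile normalization, a scale on which the median of every array was 8.25. By zone mean, 25 of 37 members (67.6%) were highest in reserve arrays, against 29% of all genes. The other members were highest in hypertrophic (7, against 25.3% of genes), proliferative (3, against 24.4%) or perichondral (2, against 21.2%) arrays. The zone with the lowest mean was proliferative for 16 members (43.2%, against 25.9% of genes) and perichondral for 11 (29.7%, against 22.4%). Both reserve arrays lay above all other 6 arrays for 9 members (24.3%, against 5.44% of all genes): Lcn2, Cybb, Cd68, Cd163, Aif1, Fcer1g, Rac2, Plek and Lcp1. Both perichondral arrays lay below all others for Cd68, Cd163 and Tyrobp (3 members, 3.28% of genes) and above for Cd37 (2.8% of genes). Both proliferative arrays lay below all others for Cd52 (3.96% of genes) and above for 0 members (3.74%). Both hypertrophic arrays lay above all others for Ncf1 and Vav1 (4.3% of genes) and below for Cd48 and Plek (4.54%), and reserve arrays lay below all others for 0 members (4.16%). No member had an adjusted p below 0.05 in any of the 6 pairs of zones (limma, Benjamini-Hochberg adjustment over 31042 probe sets).

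The median member had a log2 level of 7.24 and 7.25 in the perichondral arrays at 42 and 46 days, 8.94 and 8.69 in reserve arrays, 6.80 and 7.40 in proliferative, then 8.58 and 7.13 in hypertrophic arrays. Both reserve arrays and the 42-day hypertrophic array stood above the other 5. The array with a member's highest value was hypertrophic at 42 days for 12 members (32.4%, against 14.3% of genes). It was reserve at 42 days for 9 (24.3%, against 15.4% of genes) and reserve at 46 days for 8 (21.6%, against 10%). The 46-day hypertrophic array, in contrast, held a median close to those of the perichondral arrays. In these bulk samples, fewer cells of a type and less RNA per cell cannot be told apart.

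Many members were dim. As a yardstick, the levels of 33 genes that mark brain, liver and other foreign organs were taken, and their 0.95 quantile, 9.58, is called the other-organ level. Between 10 and 13 members lay above it in the reserve arrays and the 42-day hypertrophic array, and 1 to 3 in each of the other 5 arrays. The shares were 27% in the 42-day reserve array (24.3% of all genes), 35.1% in the 46-day reserve array (22.9%) and 35.1% in the 42-day hypertrophic array (22.1%). In the other 5 arrays they were 2.7% to 8.11%, against 19.6% to 22.7% of all genes. The other-organ level sits at the 80th percentile of the normalized distribution. A member below it has a signal that genes foreign to the tissue also give.

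**Figure D1:**
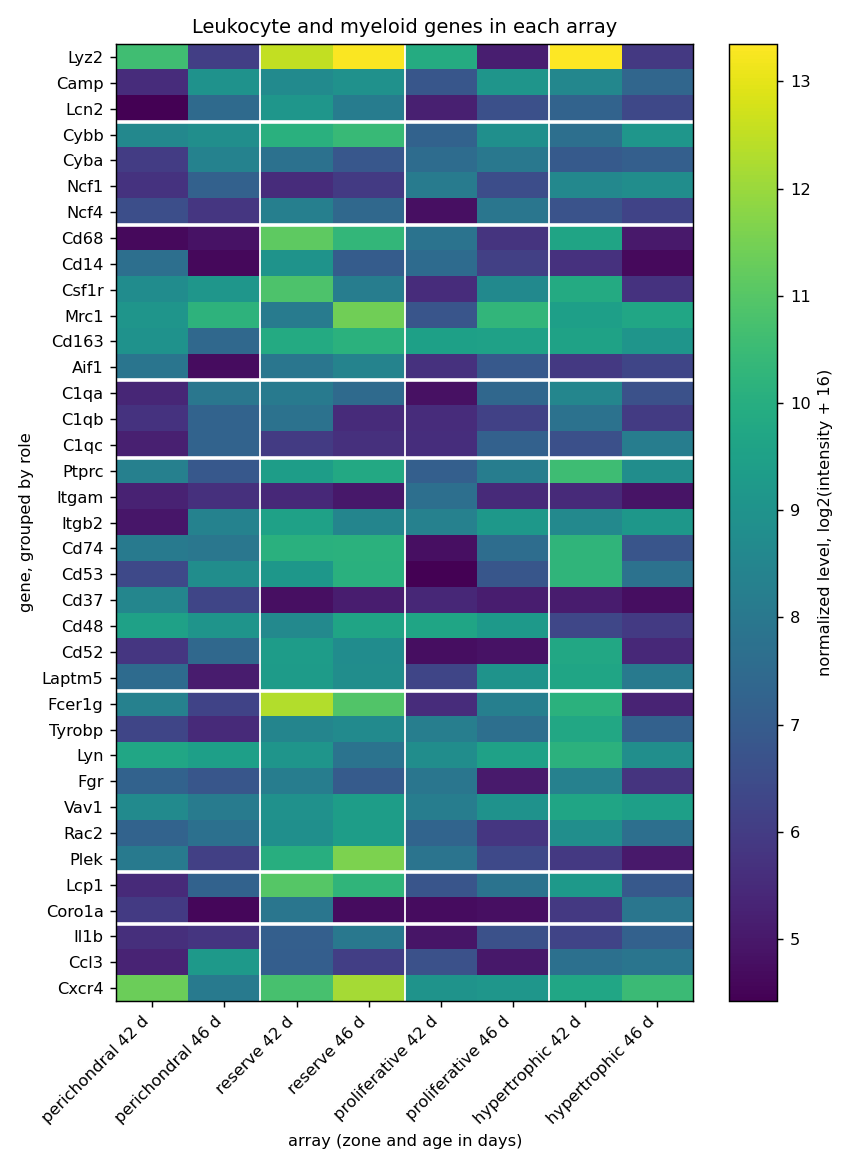
Normalized level, log2(intensity + 16), of the 37 measured members (rows, grouped by role) in each of the 8 arrays (columns, zone and age in days). Lyz2 reaches 13.35 in the 42-day hypertrophic array and 5.90 in the 46-day one, and Cd68 is at 11.13 and 10.35 in reserve against 4.66 and 4.85 in perichondral arrays.

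The trimmed mean of the deposited intensity was 500.08 to 500.16 in every array, and its median was between 226.7 and 349.0. Over the brightest 0.2 of probe sets, pairs of arrays from 1 zone correlated at r = 0.53 to 0.769, and arrays of different zones at 0.357 to 0.781. The highest value was that of the 46-day perichondral and reserve arrays, so arrays of a zone were not more alike than those of some different zones. These are correlations across probe sets, which are not independent replicates. Cartilage genes had median levels of 9.90 to 13.49 in the arrays, so the labelled tissue was borne out by its markers.

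Stretches upstream of 4 members are printed because the sequence and the measured level can be set side by side. Cd53, Laptm5 and Itgam hold the letters of a PU.1 core, and Lyz2 holds those of a C/EBP core. Both reserve arrays lay above both perichondral arrays for Cd53 and Laptm5, and these zones overlapped for Itgam. Other members with the PU.1 letters went different ways. Reserve lay above perichondral for Vav1 and below it for Cd37, and the zones overlapped for Cd14, Csf1r and Mrc1. Mpo and Ctsg hold the letters too but were not measured. Cd53 lay above the other-organ level in 2 of the 8 arrays, Laptm5 in 1 and Itgam in 0. PU.1 and C/EBP proteins are transcription factors of the myeloid lineage. The sequences are the 250 bases before the annotated start in RefSeq's GRCr8 assembly, 5′ to 3′ on the gene's strand, with matches in capitals. Their positions are chr2:197087897-197088146 (− strand) for Cd53, chr5:148371630-148371879 (+ strand) for Laptm5, chr1:192089342-192089591 (+ strand) for Itgam and chr7:54798012-54798261 (− strand) for Lyz2. Cd68, at chr10:54882442-54882691 (− strand), had the largest perichondral to reserve difference of all members and is shown because it holds neither set of letters.
Cd53: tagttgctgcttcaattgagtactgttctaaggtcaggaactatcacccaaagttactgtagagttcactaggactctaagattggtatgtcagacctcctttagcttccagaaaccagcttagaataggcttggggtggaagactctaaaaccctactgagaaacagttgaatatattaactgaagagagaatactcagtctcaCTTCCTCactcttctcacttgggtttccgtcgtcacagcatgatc
Laptm5: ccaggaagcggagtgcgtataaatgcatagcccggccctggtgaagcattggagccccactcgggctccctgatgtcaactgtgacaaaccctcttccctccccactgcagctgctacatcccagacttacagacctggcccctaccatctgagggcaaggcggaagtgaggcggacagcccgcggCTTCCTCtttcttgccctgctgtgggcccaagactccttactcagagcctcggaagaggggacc
Itgam: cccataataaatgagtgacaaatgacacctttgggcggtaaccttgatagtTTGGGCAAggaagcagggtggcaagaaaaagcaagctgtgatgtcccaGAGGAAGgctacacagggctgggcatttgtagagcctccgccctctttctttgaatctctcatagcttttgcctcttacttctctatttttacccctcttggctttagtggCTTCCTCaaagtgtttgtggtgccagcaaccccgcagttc
Lyz2: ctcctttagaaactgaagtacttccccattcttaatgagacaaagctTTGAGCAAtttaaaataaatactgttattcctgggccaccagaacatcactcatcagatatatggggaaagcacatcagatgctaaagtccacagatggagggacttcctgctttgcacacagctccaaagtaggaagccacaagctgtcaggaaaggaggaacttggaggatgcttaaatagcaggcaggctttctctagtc
Cd68: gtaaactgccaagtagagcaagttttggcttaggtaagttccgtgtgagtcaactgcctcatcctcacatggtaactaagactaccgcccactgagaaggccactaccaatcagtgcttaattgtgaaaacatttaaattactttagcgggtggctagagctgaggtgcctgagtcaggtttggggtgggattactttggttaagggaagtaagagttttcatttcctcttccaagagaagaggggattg

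The PU.1 letters searched were GAGGAAG, or CTTCCTC on the opposite strand, and those for C/EBP were TTNNGCAA, or TTGCNNAA on the opposite strand. The searched words do not overlap each other in these 5 stretches. In Cd53 the PU.1 letters begin 45 bases upstream of the start, in Laptm5 64 bases, and in Itgam 151 and 40 bases. The C/EBP letters begin 203 bases upstream in Lyz2 and 199 in Itgam. Of the 43 listed members, 30 had an upstream sequence in the table. The 13 others were Elane, Ncf4, Aif1, C1qc, Itgb2, Fcer1g, Tyrobp, Lyn, Rac2, Plek, Lcp1, Spi1 and Ccl3. The PU.1 letters stood in 10 of 30 members (33.3%) and in 3425 of 33465 promoters of the same length (10.2%). The C/EBP letters stood in 4 of 30 (13.3%) and in 9.22% of all promoters. Among 38 promoters of other myeloid genes, 28.9% held the PU.1 letters and 15.8% the C/EBP letters. Members entered once per gene, the other sets with every promoter entry. These matches describe letters and are no evidence of binding.

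The genes of the leukocyte surface comprised 9 members. CD53 is a tetraspanin of leukocytes, and its gene Cd53 had log2 levels of 6.38 and 8.79 in perichondral arrays at 42 and 46 days, 9.13 and 10.08 in reserve arrays, 4.42 and 6.82 in proliferative, then 10.26 and 7.78 in hypertrophic arrays. Both reserve arrays stood above both proliferative arrays, while the hypertrophic arrays overlapped reserve. The fitted log2 difference of reserve minus proliferative was 3.98 (SE 1.21, 15.8-fold, adjusted p = 0.451 with limma). Cd74, the invariant chain that accompanies MHC class II, was at 8.10 and 7.96, 10.08 and 10.12, 4.78 and 7.60, and 10.27 and 6.77 on the log2 scale in the same order of zones. Its reserve arrays averaged 10.10 ± 0.02 and its perichondral arrays 8.03 ± 0.10 (SD, n = 2), without overlap. The 42-day hypertrophic array was the highest of all for Cd74. Cd52, a small glycoprotein of leukocyte membranes, was at 5.85 and 7.45 in perichondral arrays, 9.34 and 8.75 in reserve arrays, 4.74 and 4.84 in proliferative, then 9.77 and 5.45 in the hypertrophic zone (log2 scale). The proliferative arrays were the lowest of all for Cd52, and reserve exceeded them by a log2 difference of 4.25 (SE 1.37, 19.1-fold, adjusted p = 0.484 with limma).

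Ptprc, which encodes the pan-leukocyte phosphatase CD45, reached its highest log2 level, 10.56, in the 42-day hypertrophic array and lay at 9.38 and 9.80 in reserve. Its perichondral levels were 8.30 and 6.88, below both reserve arrays. A second probe set of Ptprc was higher in perichondral than in reserve arrays, with log2 differences of 0.78 against -2.00 for the probe set used. In the 42-day hypertrophic array this second probe set was at a log2 level of 5.14. The direction for Ptprc is therefore that of 1 probe set. For both probe sets of Laptm5, a lysosomal membrane protein of blood cells, perichondral arrays were below reserve arrays, with log2 differences of -2.73 and -4.04. Itgb2, the beta chain of the leukocyte integrins, was lowest in the 42-day perichondral array at a log2 level of 4.96 and lay between 8.35 and 9.54 in the 7 others. Itgam, the alpha chain of integrin CD11b, had log2 levels of 4.90 to 5.65 in all arrays but the 42-day proliferative one, where it was 7.69.

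Cd37 and Cd48 had other patterns. Cd37, a tetraspanin best known from B cells, was at log2 levels of 8.52 and 6.29 in perichondral arrays and between 4.76 and 5.43 in the 6 others. It was the only member whose perichondral arrays both lay above all others. Its perichondral minus reserve difference was 2.46 on the log2 scale. Cd48, a ligand of lymphocyte and myeloid receptors, was at 6.33 and 5.93 in hypertrophic arrays and between 8.61 and 9.67 in the 6 others on the log2 scale. Its proliferative minus hypertrophic difference was 3.33 on the log2 scale (SE 0.84, unadjusted p = 0.00104, adjusted p = 0.751 with limma).

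Signalling genes formed a group of 7 measured members. Fcer1g encodes the common gamma chain of Fc receptors, an adaptor for activating receptors of myeloid cells. Its log2 levels were 8.35 and 6.20 in perichondral arrays at 42 and 46 days, 12.33 and 10.92 in reserve arrays, 5.56 and 8.29 in proliferative, then 10.12 and 5.31 in hypertrophic arrays. Reserve arrays stood above all others for Fcer1g, and the deposited intensities were 6640 and 1920 there against 29.2 to 1080 elsewhere. The reserve minus proliferative difference was 4.70 on the log2 scale (SE 1.35, 26.0-fold, unadjusted p = 0.00294, adjusted p = 0.427 with limma). Plek, pleckstrin, a substrate of protein kinase C in platelets and leukocytes, was at 8.11 and 6.12, 10.01 and 11.59, 7.85 and 6.40, and 5.91 and 5.02 on the log2 scale in the same order. Plek had both its highest arrays in reserve and both its lowest in the hypertrophic zone, unlike most members. Its reserve minus hypertrophic difference of 5.33 on the log2 scale (SE 1.17, 40.3-fold, unadjusted p = 0.000286) had the smallest adjusted p of any member between zones, 0.216 with limma.

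Tyrobp, the adaptor DAP12, which pairs with TREM receptors and also serves osteoclasts, was at 6.29 and 5.49 in perichondral arrays, 8.50 and 8.69 in reserve arrays, 8.23 and 7.67 in proliferative, then 9.77 and 7.18 in the hypertrophic zone (log2 scale). The perichondral arrays were below all 6 others for Tyrobp. Their mean was 5.89 ± 0.57 against 8.59 ± 0.14 in reserve (SD, n = 2), a log2 difference of -2.70 (SE 1.12, 6.50-fold, adjusted p = 1 with limma). Rac2, the blood-cell GTPase that helps to assemble the oxidase, averaged 9.13 ± 0.37 in reserve against 6.58 ± 1.03 in proliferative arrays (SD, n = 2) on the log2 scale. Vav1, an exchange factor for Rac proteins, was highest in the hypertrophic arrays, at log2 levels of 9.66 and 9.46, and ranged from 8.13 to 9.39 elsewhere. The Src-family kinases Lyn and Fgr ranged from 7.83 to 10.17 and from 5.07 to 8.34 on the log2 scale. Lyn was higher in both perichondral arrays than in both reserve arrays, against the direction of most members.

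The cytoskeletal members differed in how far they separated the zones. Lcp1, L-plastin, which bundles actin in leukocytes, had log2 levels of 5.47 and 7.22 in perichondral arrays, 10.99 and 10.25 in reserve arrays, 6.79 and 7.81 in proliferative, then 9.24 and 6.93 in hypertrophic arrays. Both reserve arrays lay above all others for Lcp1, and perichondral and reserve were separated by -4.28 on the log2 scale (SE 1.07, 19.4-fold, unadjusted p = 0.000975, adjusted p = 1 with limma). Coro1a, coronin 1A, an actin regulator of leukocytes, was at 5.92 and 4.57, 7.94 and 4.71, 4.72 and 4.79, and 5.90 and 7.91 on the log2 scale in the same order. The highest Coro1a arrays were reserve at 42 days and hypertrophic at 46 days, and both zones overlapped each other.

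**Figure D2:**
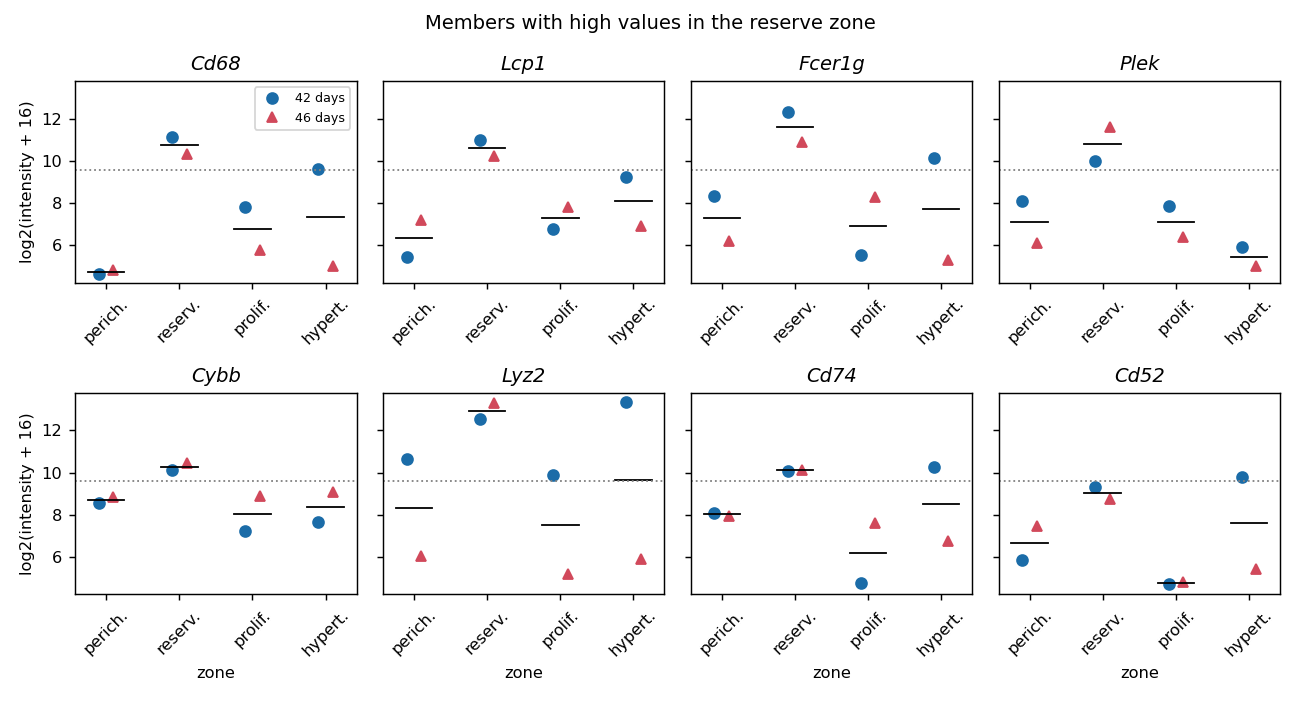
Normalized level, log2(intensity + 16), of 8 members in the 4 zones, with 1 point per array (circles 42 days, triangles 46 days) and the other-organ level of 9.58 as a dotted line. Reserve arrays are highest for Cd68, Lcp1, Fcer1g, Plek and Cybb, whereas for Lyz2, Cd74 and Cd52 the 42-day hypertrophic array is highest of all.

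Of the granule proteins, 3 of 8 were measured. Lyz2, lysozyme of macrophages and neutrophils, was among the brightest members and the most uneven one. Its log2 levels were 10.62 and 6.07 in perichondral arrays at 42 and 46 days, 12.54 and 13.30 in reserve arrays, 9.90 and 5.18 in proliferative, then 13.35 and 5.90 in hypertrophic arrays. Both reserve arrays were high, while in every other zone the 46-day array was far below the 42-day array. Deposited intensities were 7790 and 10700 in reserve and 11300 and 51.1 in hypertrophic arrays. Reserve exceeded proliferative by a log2 difference of 5.38 (SE 1.83, 41.7-fold, adjusted p = 0.524 with limma). With the 42-day proliferative array alone the difference was 3.02 and with the 46-day array alone 7.74.

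Lcn2, lipocalin 2, an iron-scavenging protein of neutrophil granules that chondrocytes can also make, was at 4.44 and 7.50 in perichondral arrays, 9.12 and 8.17 in reserve arrays, 5.22 and 6.61 in proliferative, then 7.25 and 6.36 in the hypertrophic zone (log2 scale). Both reserve arrays stood above all others for Lcn2, yet all 8 levels were below the other-organ level. The log2 difference between reserve and proliferative was 2.73 (SE 1.26, 6.65-fold, adjusted p = 0.648 with limma). Camp, the cathelicidin of neutrophil granules, was at 5.55 and 8.97, 8.69 and 8.92, 6.80 and 9.08, and 8.55 and 7.36 on the log2 scale in the same order of zones. The highest Camp array was the 46-day proliferative one, and the zones overlapped except for reserve above hypertrophic.

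The phagocyte oxidase was represented by its membrane subunits Cybb and Cyba and the cytosolic subunits Ncf1 and Ncf4. Cybb, the catalytic gp91phox, had log2 levels of 8.58 and 8.85 in perichondral arrays, 10.10 and 10.43 in reserve arrays, 7.23 and 8.88 in proliferative, then 7.68 and 9.10 in hypertrophic arrays. Reserve arrays stood above all others, and exceeded proliferative by a log2 difference of 2.21 (SE 0.82, 4.63-fold, adjusted p = 0.571 with limma). That difference was 1.39 without the 42-day proliferative array and 3.03 without the 46-day one. A second, dimmer probe set of Cybb had the opposite sign between perichondral and reserve, 0.45 against -1.55 on the log2 scale. Ncf1, p47phox, ran the other way: it was at 5.72 and 7.20 in perichondral arrays, 5.54 and 5.94 in reserve arrays, 8.13 and 6.54 in proliferative, then 8.58 and 8.79 in the hypertrophic zone (log2 scale). Its hypertrophic arrays lay above all others and its reserve arrays below both proliferative arrays. The reserve minus hypertrophic difference of Ncf1 was -2.94 on the log2 scale (SE 1.17, 7.69-fold, adjusted p = 0.554 with limma). Ncf4, p40phox, was at 6.57 and 5.83, 8.28 and 7.42, 4.78 and 7.91, and 6.71 and 6.23 on the log2 scale, with reserve above both perichondral and both hypertrophic arrays and overlapping the proliferative ones. Cyba, p22phox, ranged from 6.01 to 8.37 on the log2 scale, and no zone lay apart from all others. The values of these subunits did not share 1 order of zones. All levels of Ncf1, Ncf4 and Cyba lay below the other-organ level, and Cybb lay above it in 2 of the 8 arrays. With signals that genes foreign to the tissue also give, the order of zones for the complex cannot be told.

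All 6 macrophage receptor and lysosome genes had a lower mean in perichondral than in reserve arrays. Cd68, a lysosomal glycoprotein of macrophages and osteoclasts, had the largest such difference of all members. Its log2 levels were 4.66 and 4.85 in perichondral arrays, 11.13 and 10.35 in reserve arrays, 7.81 and 5.77 in proliferative, then 9.64 and 5.03 in hypertrophic arrays. Deposited intensities were 7.83 and 14.5 in perichondral and 2540 and 1270 in reserve arrays. The perichondral arrays were the lowest of all and the reserve arrays the highest. The log2 difference was -5.98 (SE 1.40, 63.2-fold, unadjusted p = 0.000534, adjusted p = 1 with limma).

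Cd14, the lipopolysaccharide co-receptor of monocytes, was at 7.69 and 4.62 in perichondral arrays, 9.02 and 7.03 in reserve arrays, 7.54 and 6.11 in proliferative, then 5.69 and 4.64 in the hypertrophic zone (log2 scale). It was lower at 46 than at 42 days in all 4 zones. Aif1, the macrophage protein Iba1, was at 7.90 and 4.70, 7.91 and 8.42, 5.70 and 6.93, and 5.91 and 6.27 on the log2 scale in the same order. Its reserve arrays were the highest of all, but by only 0.01 over the 42-day perichondral array at that age, and a second probe set had the opposite sign (1.60 against -1.87, perichondral minus reserve on the log2 scale). Cd163, the haemoglobin scavenger receptor, spanned 7.45 to 10.12 on the log2 scale, with perichondral arrays the lowest and reserve arrays the highest. Csf1r, the receptor for the macrophage growth factor CSF1, was at 10.87 and 8.21 in reserve and 9.87 and 5.72 in the hypertrophic zone (log2 scale), lower at 46 days in both zones, and at 8.76 and 9.10 in perichondral and 5.56 and 8.66 in proliferative arrays, higher at 46 days in both. Mrc1, the mannose receptor, ranged from 6.78 to 11.40 on the log2 scale.

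The complement C1q chains, which tissue macrophages make in quantity, separated the zones little. C1qa was at log2 levels of 5.38 and 7.95 in perichondral arrays, 8.11 and 7.50 in reserve arrays, 4.82 and 7.40 in proliferative, then 8.51 and 6.62 in hypertrophic arrays. C1qc was at 5.22 and 7.25, 5.97 and 5.65, 5.58 and 7.18, and 6.61 and 8.21 on the log2 scale, and was highest in the hypertrophic zone by its mean. C1qb ranged from 5.53 to 7.77 on the log2 scale. All levels of the 3 chains lay below the other-organ level.

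Among the cytokines and the chemokine receptor, Cxcr4 was the brightest. CXCR4 is the receptor that holds blood-forming cells in the marrow. Cxcr4 was at log2 levels of 11.35 and 8.08 in perichondral arrays, 10.74 and 12.13 in reserve arrays, 9 and 9.12 in proliferative, then 9.70 and 10.50 in hypertrophic arrays. Reserve exceeded proliferative by a log2 difference of 2.37 (SE 0.85, 5.18-fold, adjusted p = 0.551 with limma), and overlapped perichondral. Of the other 2 probe sets of Cxcr4, 1 gave 1.97 and the other 0.01 for that difference on the log2 scale. Il1b, interleukin 1 beta, was at 5.62 and 5.79, 7.13 and 7.98, 4.94 and 6.62, and 6.24 and 7.20 on the log2 scale, with reserve above both perichondral and both proliferative arrays. Ccl3, a chemokine of activated macrophages, was at 5.32 and 9.23, 7.10 and 6.06, 6.65 and 4.98, and 7.70 and 7.90 on the log2 scale. Its highest array was the 46-day perichondral one, where the 42-day array was the second lowest of all 8.

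In perichondral against reserve, the pair of zones that the series title names, 30 of 37 members had a lower mean in perichondral arrays, with a median log2 difference of -1.65 (-0.05 over all genes). Both perichondral arrays lay below both reserve arrays for 20 members (54.1%), against 18.4% of all genes. They lay above for 2 members, Cd37 and Lyn (5.41%, against 16.7%). With limma 0 members and 0 of 31042 probe sets (0%) had an adjusted p below 0.05. Without adjustment, 12 members had p below 0.05, 11 of them lower in perichondral arrays, where 2.58% of all genes were lower at that level, and 1 (Cd37) higher, against 1.34%. The 12 were Lyz2, Lcn2, Cd68, Cd163, Ptprc, Itgb2, Cd37, Laptm5, Fcer1g, Tyrobp, Plek and Lcp1. The members' median was -1.74 between the 42-day arrays, with 31 of 37 lower, and -1.28 between the 46-day arrays, with 26 lower. The Gapdh control, whose 3′ to 5′ signal ratio reflects RNA integrity, had ratios of 4.47 and 3.78 in perichondral and 8.15 and 3.96 in reserve arrays. The same ratio of the actin control was 1.64 and 0.56 in perichondral and 4.65 and 2.32 in reserve arrays, higher in both reserve arrays. The part of RNA integrity in the result was not tested.

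**Figure D3:**
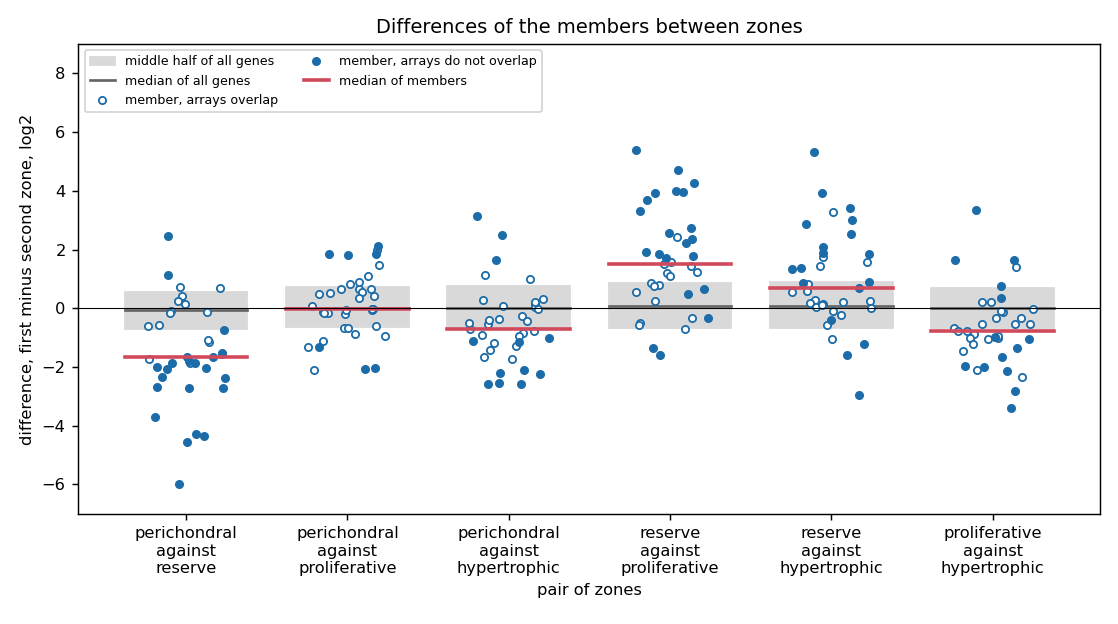
Differences of the 37 members between zones (vertical axis, log2, first minus second zone) for the 6 pairs of zones, with filled points where the arrays of both zones do not overlap, open points where they do, a red bar at the members' median and a grey box for the interquartile range of all 14217 genes. The members' median is -1.65 for perichondral against reserve and 1.5 for reserve against proliferative, and -0.01 for perichondral against proliferative.

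Reserve exceeded proliferative for 30 of 37 members, with a median log2 difference of 1.5 (0.06 over all genes). The arrays did not overlap for 18 members in that direction (48.6%, against 21.3% of all genes) and for 3 in the other, Ncf1, Itgam and Cd37 (8.11%, against 19.1%). No member passed the adjusted threshold with limma, which 7 of 31042 probe sets (0.0226%) did. Without adjustment 13 members had p below 0.05, all higher in reserve arrays, where 6.10% of all genes were, and none lower, where 2.41% were. The median was 2.43 without the 46-day proliferative array and 0.94 without the 42-day one. Among the 18 members without overlap, the second probe sets of Ptprc and Aif1 had the opposite sign. For reserve minus proliferative they gave -2.02 against 1.93 and -0.82 against 1.85 on the log2 scale. The second probe set of Cybb kept the sign, at 1.06 against 2.21.

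Reserve against hypertrophic gave 29 of 37 members higher in reserve and a median log2 difference of 0.68 (0.07 over all genes). Arrays did not overlap for 14 members higher in reserve (37.8%, against 20.6% of genes) and 4 lower: Ncf1, C1qc, Vav1 and Ccl3 (10.8%, against 18.8%). No member passed with limma, against 0.0226% of probe sets. Without adjustment 8 members had p below 0.05, 7 higher in reserve (6.36% of all genes) and Ncf1 lower (2.70% of all genes). At 42 days the median was 0.03 and at 46 days 1.33. Without the 42-day hypertrophic array the median was 1.19 and 26 members did not overlap, when 39.3% of all genes also did not. Without the 46-day hypertrophic array the median was 0.25.

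The other pairs depended on the age of the arrays. Perichondral and proliferative arrays had a median log2 difference of -0.01, with 19 of 37 members lower in perichondral. Non-overlapping arrays were found for 3 members lower (8.11%, against 17.1% of genes) and 4 higher (10.8%, against 17.4%). No member and 0% of probe sets passed with limma, and Cd37 alone had an unadjusted p below 0.05 (higher, where 3.30% of all genes were, against 0 members and 1.93% of genes lower). This median was 0.52 without the 46-day proliferative array, 0.22 without the 46-day perichondral array, -0.16 without the 42-day proliferative array and -0.08 without the 42-day perichondral array. Its 4 members without overlap, higher in perichondral arrays, became 12 and 13 without the 42-day or 46-day perichondral array and 8 and 13 without the 42-day or 46-day proliferative array, when all genes gave 31.5% to 36.5%.

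Perichondral was below hypertrophic for 26 of 37 members, with a median log2 difference of -0.69. Arrays did not overlap for 9 members in that direction (24.3%, against 17.6% of genes) and 3 in the other (8.11%, against 18.3%). No member passed with limma, against 0.029% of probe sets. Without adjustment 5 members had p below 0.05: Ptprc, Laptm5 and Tyrobp lower (2.32% of all genes) and Cd37 and Cd48 higher (4.53%). This median was -0.10 without the 42-day hypertrophic array and -1.27 without the 46-day one, and the 9 members without overlap became 22 without the 46-day hypertrophic array, 20 without the 46-day perichondral array and 14 without the 42-day perichondral array. All genes then gave 36.4%, 32.2% and 32.5%, since 1 array of a zone overlaps less often than a pair. For perichondral minus hypertrophic, the second probe set of Ptprc had the opposite sign, 1.4 against -2.09 on the log2 scale. The second probe set of Laptm5 gave -0.13 against -2.53.

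Proliferative was below hypertrophic for 29 of 37 members, with a median log2 difference of -0.79. Arrays did not overlap for 9 members in that direction (24.3%, against 15.8% of genes) and 5 in the other (13.5%, against 15.5%). No member passed with limma, against 0.0129% of probe sets, and 3 had an unadjusted p below 0.05: Ptprc and Cd53 lower (2.64% of all genes) and Cd48 higher (3.08%). This median was -0.11 without the 42-day hypertrophic array and -0.16 without the 42-day proliferative array. Its 9 members without overlap became 25 without the 46-day proliferative array and 23 without the 46-day hypertrophic array (31.8% and 35% of all genes). For proliferative minus hypertrophic, the second probe set of Ptprc had the opposite sign, 2.63 against -2.01 on the log2 scale. The 6 comparisons share arrays and are not independent of each other.

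**Figure D4:**
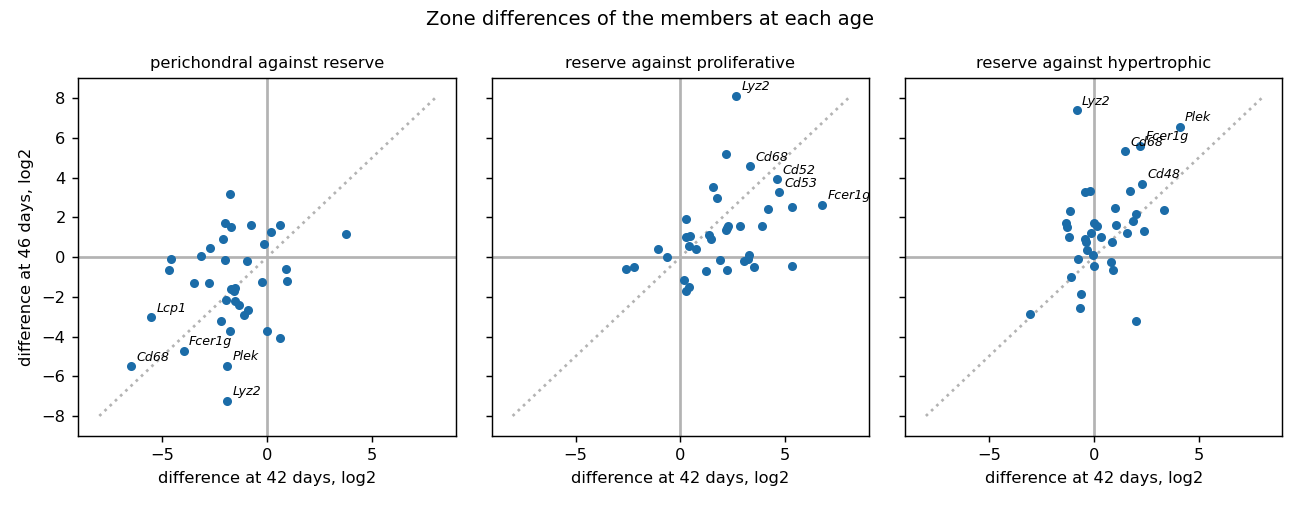
Differences of the 37 members between zones at 46 days (vertical axis, log2) against those at 42 days (horizontal axis, log2), for perichondral against reserve, reserve against proliferative and reserve against hypertrophic, each from 1 array per zone and age. The members' median is negative at both ages for perichondral against reserve (-1.74 and -1.28), positive at both for reserve against proliferative (2.17 and 1.02), and 0.03 and 1.33 for reserve against hypertrophic.

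Between ages, no member passed the threshold over all zones (limma with zone as a covariate, 0% of 31042 probe sets). By their means 23 of 37 were lower at 46 days, with a median log2 difference of -0.28 (-0.06 over all genes). This median was 0.04 without either hypertrophic array, -0.15 without either perichondral array and -0.43 without either proliferative array. Lyz2, Cd14 and Mrc1 had an unadjusted p below 0.05, the first pair lower at 46 days (6.02% of all genes were) and Mrc1 higher (2.96%). The Lyz2 log2 difference of 46 minus 42 days was -3.99 (SE 0.81, 15.9-fold, adjusted p = 0.118), with the 46-day array lower in 3 of 4 zones and higher in reserve. Without the 42-day reserve array the difference was -5.57 with an adjusted p of 0.00456, without the 46-day reserve array -5.57 with 0.00724, and with arrays centred on their medians -4.23 with 0.0149, each below the threshold. The call for Lyz2 therefore turned on the reserve zone and on the scaling. Cd14 had a log2 difference of -1.88 (SE 0.81, adjusted p = 0.561 with limma), lower in all 4 zones.

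Mrc1, the mannose receptor of macrophages and of some endothelia, had log2 levels of 9.07 and 10.18 in perichondral arrays at 42 and 46 days, 8.13 and 11.40 in reserve arrays, 6.78 and 10.29 in proliferative, then 9.45 and 9.70 in hypertrophic arrays. It was higher at 46 days in all 4 zones, by 2.03 on the log2 scale (SE 0.56, 4.09-fold, adjusted p = 0.296 with limma). The zones overlapped in every pair for Mrc1.

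Within zones, 26 of 37 members (70.3%) were lower at 46 than at 42 days in hypertrophic arrays, with a median log2 difference of -0.89, against 52.6% of all genes. In proliferative arrays 12 members were lower, with a median of 0.72. In perichondral and reserve arrays 18 and 19 were lower, with medians of 0.17 and -0.32. The members' median absolute difference between ages was 1.52 in perichondral arrays, 0.78 in reserve arrays, 1.46 in proliferative and 1.20 in hypertrophic arrays, where all genes gave 0.81, 0.77, 0.93 and 0.99. The reserve arrays thus differed from each other by as much as those of the median gene, and the others by more. With 1 array per zone and age these differences have no test. The actin 3′ to 5′ ratio at 42 and 46 days was 1.71 and 4.59 in hypertrophic and 1.85 and 4.56 in proliferative arrays. The Gapdh ratio was 4.3 and 3.63 in hypertrophic and 7.1 and 5.39 in proliferative arrays, lower at 46 days in both. The part of RNA integrity in the differences between ages was not tested.

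Other genes of myeloid cells, 37 measured of a list of 50, were followed beside the members. The calprotectin genes S100a8 and S100a9, the most abundant cytosolic proteins of neutrophils, stood out. S100a9 was at log2 levels of 9.63 and 7.89 in perichondral arrays, 13.34 and 13.56 in reserve arrays, 6.36 and 5.44 in proliferative, then 10.13 and 9.20 in hypertrophic arrays. Reserve exceeded proliferative by a log2 difference of 7.55 (SE 0.74, 187-fold, adjusted p = 0.000438 with limma), the only change past the threshold in this list. S100a8 was at 9.20 and 4.49, 13.56 and 13.60, 4.85 and 4.62, and 12.10 and 6.02 on the log2 scale, with an adjusted p of 0.0606 for reserve against proliferative. Between perichondral and reserve 27 of 37 of these genes had a lower mean in perichondral arrays, with a median log2 difference of -0.58, and the arrays did not overlap for 13 lower (35.1%, against 18.4% of all genes) and 5 higher (13.5%, against 16.7%). Blnk and Fcgr1a were among those lower in perichondral arrays, by log2 differences of -5.10 and -3.59 (adjusted p = 1 for both with limma).

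Lists for further cell types of marrow, blood and vessels were read in the same way. Of 10 erythroid genes measured, 9 had a lower mean in perichondral than in reserve arrays, with a median log2 difference of -1.57. Of 11 osteoclast genes all 11 had a lower mean, with a median of -1.46. With limma 0 genes of either list passed the threshold between these zones. Without adjustment 5 erythroid and 4 osteoclast genes had p below 0.05, all lower in perichondral arrays, where 2.58% of all genes were. The erythroid genes' log2 summed intensity was 11.42 and 11.30 in perichondral arrays, 13.64 and 15.38 in reserve arrays, 11.57 and 12.28 in proliferative, then 13.68 and 11.88 in hypertrophic arrays. That of the osteoclast genes was 11.94 and 11.06, 14.34 and 13.80, 11.61 and 11.48, and 13.20 and 12.96 in the same order, and that of the members was 13.41 and 13.01, 14.97 and 15.16, 12.73 and 13.21, and 14.77 and 13.06. All 3 lists were high in both reserve arrays and in the 42-day hypertrophic array. The osteoclast sum of the 46-day hypertrophic array was carried by Mmp9, at a log2 level of 12.48: 1 of 11 osteoclast genes lay above the other-organ level there, and 4 of 11 (36.4%) had their lowest value there. The part of these cell types in the members' result was not tested.

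Lymphocyte genes did not follow the members. Of 15 measured, 8 had a lower mean in perichondral than in reserve arrays, with a median log2 difference of -0.19, and their median level was 7.45 and 7.95 in reserve arrays and 6.99 in the 42-day hypertrophic array, the lowest of all 8. Cd3d, a chain of the T-cell receptor complex, lay between 4.49 and 6.12 on the log2 scale, and Cd79b, its counterpart in B cells, between 5.23 and 7.92. Ebf1 and Prf1 of the same list were brighter. Ebf1 lay between 11.05 and 12.66, above the other-organ level in all 8 arrays, and Prf1 between 7.37 and 11.07, above it in 7 arrays. Mast cell genes gave a median log2 difference of 0.12 between perichondral and reserve over 9 genes. Of 6 megakaryocyte genes measured, 3 had a lower mean in perichondral than in reserve arrays, with a median log2 difference of 0.05. Endothelial genes were lower in perichondral arrays for 10 of 12, with a median of -1.29. With limma 2 of the 12 had an unadjusted p below 0.05, both lower (2.58% of all genes were), and 0 passed the threshold.

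**Figure D5:**
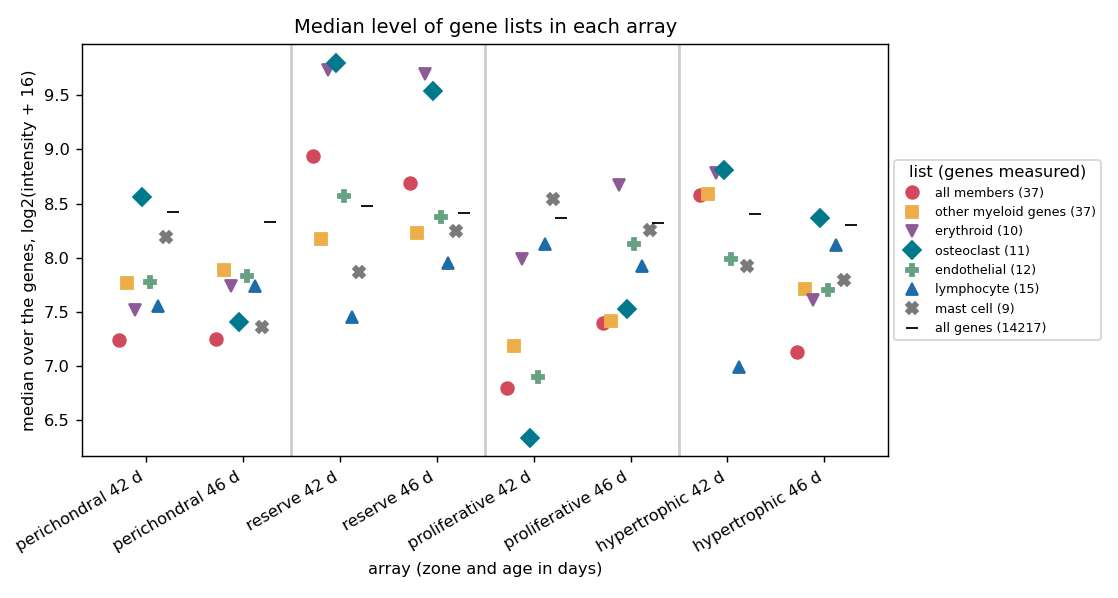
Median level, log2(intensity + 16), of the members and of other gene lists in each of the 8 arrays (horizontal axis, zone and age in days), with the number of genes measured in the legend. The members' median is 8.94 and 8.69 in reserve and 8.58 in the 42-day hypertrophic array and 7.40 or lower elsewhere, and the lymphocyte median is lowest, at 6.99, in the 42-day hypertrophic array.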

How the data were processed

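RNA of 8 pools was measured on Affymetrix rat arrays. Per the labels, RNA was extracted with Qiagen RNeasy, amplified with Nugen Ovation and labelled with biotin. The authors deposited linear intensity values for 31099 probe sets. MAS5, GCOS and RMA are named in the submitters' processing notes, with no word on what each did, and no genome build is given in the sources used here. Detection calls were not used here.

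From the deposited intensities, 57 control probe sets were left out, and log2(intensity + 16) of the other 31042 was quantile normalized between arrays because array medians (7.92 to 8.51) differed by more than 0.1. Folds are on this log2 scale, which understates differences of dim genes. Symbols came from the platform annotation: 20826 probe sets had 1 symbol, 436 several and 9780 none, and 20758 matched through gene identifiers. The probe set with the highest mean stood for a gene.

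With limma 3.58.1 in R 4.3.3, all 8 arrays entered 1 linear model of zone means, moderated by eBayes with a trend (residual df 4, prior df 12.58). P-values of the 6 zone pairs were adjusted by Benjamini-Hochberg over every probe set, threshold 0.05. The model for age had zone as its covariate (residual df 3). The procedure was tested on simulated data, in which 200 probe sets were raised in reserve arrays. For perichondral against reserve, 0% of them were recovered at a log2 change of 2, 13.5% at 4 and 64.6% at 6. A count of 0 members past the threshold therefore does not show that zones were alike. Since pools of a zone also differ in age, p-values measure a spread that includes age.

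The members and lists were chosen with earlier results of these data known. Values in every array were to be given, in each role, for up to 3 members with the largest difference between zones whose arrays did not overlap, and for up to 4 other myeloid genes in a comparison. Cyba, Cd37, Cd48, Mrc1 and others are given as ranges or for a pattern seen in their values. Alternatives changed the pseudocount, normalization, dim-probe filter, probe set choice, variance model, arrays in the fit and the replicate block, and left out each array.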

Additional observations from a re-analysis of the deposited data

Results flagged for a closer look

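The members' median difference between zones had opposite signs at the 2 ages in 3 pairs of zones. Each value rests on 1 array per zone and age, and the difference between ages was not tested. Perichondral minus proliferative had a median log2 difference of 0.51 at 42 days and -0.11 at 46 days. Perichondral minus hypertrophic had -1.39 at 42 days and 0.29 at 46 days. Proliferative minus hypertrophic had -1.46 at 42 days and 0.45 at 46 days. In both pairs with the hypertrophic zone, the 42-day hypertrophic array had a members' median level of 8.58 and the 46-day array 7.13.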

How the results depend on the processing

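The precision is limited by 2 arrays per zone. Counts of 0 members past the threshold stayed at 0 in the 6 pairs of zones under every alternative run; between ages the count was 1 (Lyz2) with arrays centred on their medians, and 0 to 1 with an array left out. Centring moved the median of all genes between ages from -0.06 to -0.18 and between perichondral and reserve from -0.05 to -0.17. The perichondral to reserve median of -1.65 was -1.23 with a pseudocount of 64 and -1.14 with the mean over all probe sets of a gene; the cause was not tested. Counts of members without overlap, and the differences of single members, were put through the same alternatives after the data were seen. A filter on dim probe sets kept 17 of 37 members. Members without overlap among these 17 were 11 for perichondral below reserve, 2 for perichondral above proliferative and 5 for perichondral below hypertrophic. They were 9 for reserve above proliferative, 7 for reserve above hypertrophic and 4 for proliferative below hypertrophic. Counts out of 17 cannot be set against counts out of 37, and the shares of all genes under the filter are not printed here. With an array left out, medians ranged from -1.77 to -1.29 (perichondral against reserve), -0.16 to 0.52 (perichondral against proliferative), -1.27 to -0.10 (perichondral against hypertrophic), 0.94 to 2.43 (reserve against proliferative), 0.25 to 1.19 (reserve against hypertrophic), -1.15 to -0.11 (proliferative against hypertrophic) and -0.43 to 0.04 (between ages). Counts without overlap, which grow when a zone has 1 array, were then 20 to 26, 4 to 13, 9 to 22, 18 to 27, 14 to 26 and 9 to 25 in the order of the filter's counts. With age as a replicate block, the members past the threshold stayed at 0 and the perichondral to reserve median at -1.65; probe sets called went from 0 to 3 in that pair, 0 to 13, 9 to 55, 7 to 60, 7 to 38 and 4 to 11 in the others. Deviations of same-age arrays correlated between zones at r = 0.0225 to 0.0806 across all probe sets and at 0.058 to 0.31 across the brightest 0.2, where 4 of 6 zone pairs were above 0.1. Not every pair of zones was above 0.1, and no label ties the zones of an age to the same animals, so the ages were not taken to pair the arrays. Named members were put through the alternatives in 1 comparison each, the largest without overlap, and kept their sign there, with Aif1 (reserve minus hypertrophic, 2.08) at 0.03 under the mean over its probe sets. The planned re-check of members past the threshold gave no value, as none passed.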
